A study of Mus musculus with 2 samples.

Results

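The enzymes described here attach glutathione, glucuronic acid or sulfate to other molecules. They were taken from the liver arrays as every gene whose platform symbol names a cytosolic, mitochondrial or microsomal glutathione S-transferase, a UDP-glucuronosyltransferase of families 1 to 3, or a cytosolic sulfotransferase. This gave 40 genes of the 12393 with a probe set assigned to a single symbol: 18 soluble glutathione S-transferases, 3 microsomal ones, 8 UDP-glucuronosyltransferases and 11 sulfotransferases. A further 5 probe sets name several family genes at once and are given apart. The squalene pool came from male mice that received squalene at 1 g per kg per day in a glycerol drink for 10 weeks, and the control pool from male mice that drank 1% glycerol alone. Both pools were of apolipoprotein E-deficient mice on a C57BL/6J/OLA129 background, labelled as 2 months of age and kept on chow. With 1 array for each pool, no ratio has a replicate, no test between groups could be made, and every value compares these 2 pools. The sources used here give neither how many animals were pooled nor the hour of collection, and a pool shows nothing of the spread between animals.

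Glutathione S-transferases join reactive electrophiles to glutathione, UDP-glucuronosyltransferases join bilirubin, steroids and drugs to glucuronic acid from UDP-glucuronate, and sulfotransferases transfer sulfate from the activated donor PAPS to phenols, steroids and amines. The products are more water-soluble and leave the hepatocyte through bile or blood. Many genes of these families are known targets of the sensors NRF2, CAR, PXR and AHR, and several differ between male and female mouse liver. In bulk liver RNA, fewer cells of a type and less RNA per cell cannot be told apart.

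Most of the 40 genes were read well, and most had a like signal in both pools. With a mean signal filter at the median of all probe sets (38.4), 35 genes passed and 5 did not, namely Mgst2, Sult1c1, Sult2b1, Sult3a1 and Sult4a1. Of the 35 that passed, 5 were higher and 2 lower by more than 0.5 in the log2 ratio of squalene over control, and 28 lay between. Among all 6902 genes passing the same filter, 9.21% were higher and 8.08% lower by that much, so the 5 and 2 called lie near what that background gives for 35 genes. The median log2 ratio of the 35 was -0.02, beside 0.01 over all 6902. Sult1e1 passed although its control signal lay below the array median. Over the 34 members that reached the array median in each pool, 4 were higher and 2 lower, beside 7.85% and 6.35% of all genes so chosen. Without the filter, 8 of 40 were higher and 4 lower, beside 21.5% and 19.8% of all 12393 genes.

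The families are mostly bright on this array. Of the 35, 22 fell in the bright tertile of mean signal of all genes passing (321.0 and above), where 3.35% of genes were higher and 3.39% lower, and 1 of these 22 was higher (Gstm3) and 2 were lower (Gstm4 and Ugt3a1). In the middle tertile, 1 of 8 was higher (Gstt3), and 0 were lower, beside 8.52% and 5.74% of genes there. In the dim tertile, 3 of 5 were higher (Sult1e1, Ugt2b37 and Sult2a2) and 0 lower, beside 15.8% and 15.1% of genes there. The only measure of error these arrays hold is the spread between probe sets of the same gene, whose log2 ratios had an SD of 0.16, 0.25 and 0.41 from the bright to the dim tertile. That spread covers neither animals nor arrays.

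**Figure D1:**
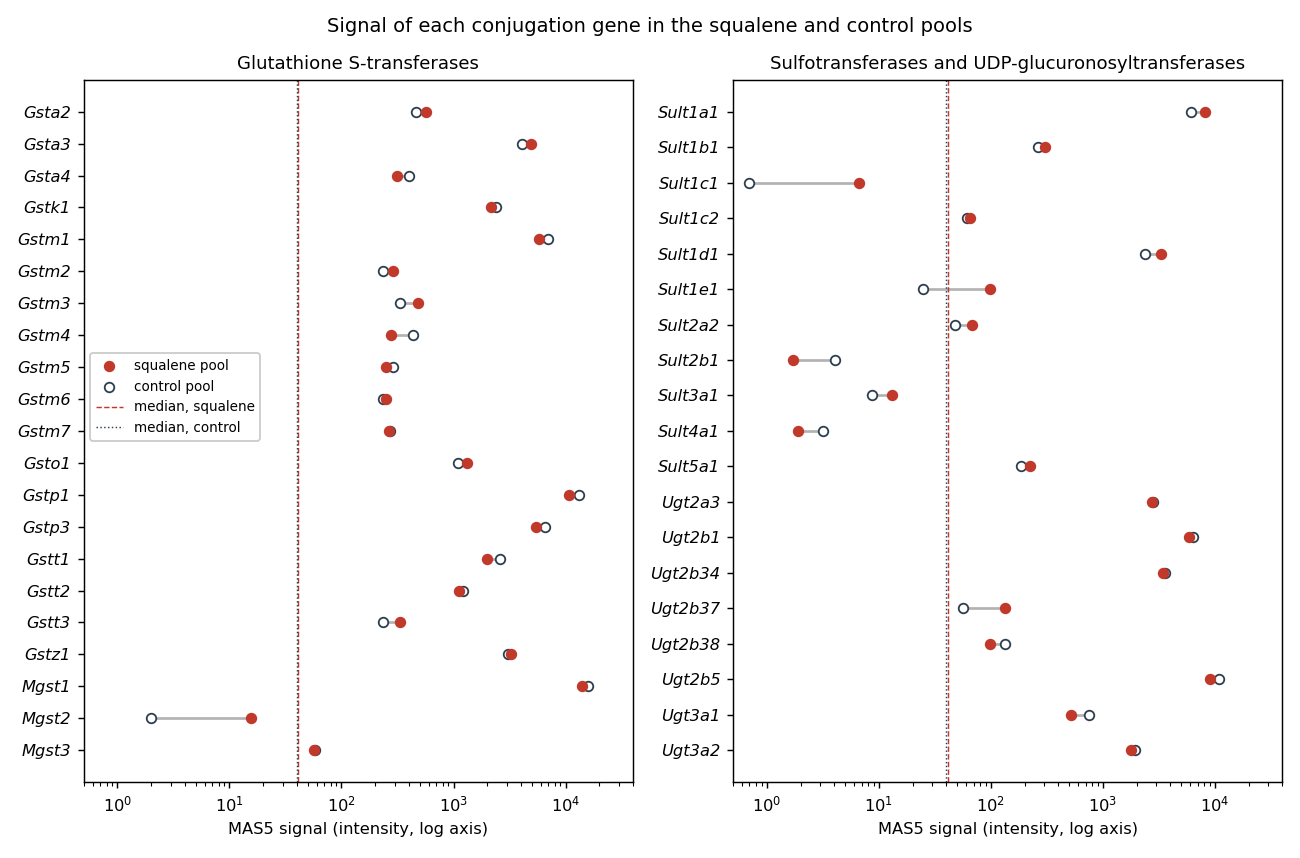
MAS5 signal of the 40 genes on a log axis, in the squalene pool (filled red) and the control pool (open), 1 array each, with the array medians (41.3 in the squalene and 39.9 in the control pool) as vertical lines. Most pairs of points nearly touch, and the wide gaps belong to genes whose signals lie near or below the medians, such as Sult1e1 at 97.4 in the squalene and 24.6 in the control pool.

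The array medians were 41.3 in the squalene and 39.9 in the control pool. The 18 spike-in probe sets, which read RNA added at hybridization, were all below 0, at a median of -0.26. Scaling to them would raise every ratio below by 0.26, and would put 12 of the 35 genes higher by more than 0.5 and 0 lower, beside 24.3% and 2.91% of all genes. The hepatocyte markers were bright in both pools, and 0 of 13 that passed lay beyond 0.5, with a median log2 ratio of -0.06. Of 15 Kupffer cell and macrophage markers that passed, 0 lay above 0 and 10 were lower by more than 0.5, beside 8.08% of all passing genes. Their summed signals were 5445.5 in the squalene and 8450.3 in the control pool, with none at 0 in either. Marco and Cd14 passed with squalene signals below the array median. Over the 13 that reached the array median in each pool, 0 were higher and 8 lower, beside 7.85% and 6.35% of all genes so chosen. With no filter, 2 of 20 were higher and 11 lower, beside 21.5% and 19.8% of all genes. Of 6 passing stellate cell markers, 0 were higher and 4 were lower, beside 9.21% and 8.08% of all passing genes, with a median of -0.70. The 4 lower were Col1a2 (-0.71), Col3a1 (-0.70), Pdgfrb (-0.70) and Acta2, which read 73.1 in the squalene and 146.6 in the control pool. Dcn (-0.07) and Reln (0.02), the brightest of the 6, lay near 0. In the dim tertile 15.1% of genes were lower. Of 14 passing endothelial markers, 2 were higher and 2 lower. The part of these cell types in the ratios below was not tested.

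The largest ratio among the genes passing belonged to Sult1e1, the estrogen sulfotransferase, which was 3.96-fold higher in the squalene pool. Its single probe set read 97.4 in the squalene pool, against 24.6 in the control pool, a log2 ratio of 1.99. The control signal lay below the array median, and with signals floored at the median the log2 ratio was 1.29. At the log2 limit of 1.5 that the submitters used as their screen, Sult1e1 was past it as deposited and not with floored signals. Because Sult1e1 passed the mean signal filter through its squalene signal alone, nothing is read from its standing beside the 0.174% of all passing genes that were higher and the 0.188% that were lower by that much. Without the filter Mgst2 and Sult1c1, both dim in each pool, were past it too, beside 7.86% of all genes higher and 7.3% lower. Ugt2b37, a glucuronosyltransferase of the subfamily known for steroid substrates, followed with 133.1 in the squalene pool and 56.4 in the control pool, a 2.36-fold difference on 1 probe set. Both of its signals lay above the medians.

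The upstream sequences of these 2 genes are shown with those of Sult1d1, next to Sult1e1, and Gstm4, the passing member farthest below 0. Each is the 250 bases before the first start listed for the gene in the RefSeq promoter table (GRCm38.p6), read 5′ to 3′ on the gene's strand. Capitals mark motif matches.
Sult1e1 at chr5:87591612-87591861, minus strand: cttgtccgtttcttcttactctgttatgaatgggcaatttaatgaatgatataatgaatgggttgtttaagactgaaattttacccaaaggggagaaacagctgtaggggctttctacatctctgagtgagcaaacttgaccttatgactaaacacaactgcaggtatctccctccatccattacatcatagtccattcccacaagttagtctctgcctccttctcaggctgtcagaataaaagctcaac
Sult1d1 at chr5:87569007-87569256, minus strand: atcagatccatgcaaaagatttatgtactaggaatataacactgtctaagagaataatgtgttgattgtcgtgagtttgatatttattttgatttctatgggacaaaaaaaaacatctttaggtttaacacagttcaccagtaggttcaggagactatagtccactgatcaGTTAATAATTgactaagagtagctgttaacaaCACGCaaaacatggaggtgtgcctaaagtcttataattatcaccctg
Ugt2b37 at chr5:87254789-87255038, minus strand: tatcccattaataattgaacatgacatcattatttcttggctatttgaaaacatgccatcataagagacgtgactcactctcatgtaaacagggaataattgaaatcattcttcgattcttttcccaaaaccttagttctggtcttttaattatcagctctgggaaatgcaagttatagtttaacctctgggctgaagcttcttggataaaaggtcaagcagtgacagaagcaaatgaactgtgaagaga
Gstm4 at chr3:108044860-108045109, minus strand: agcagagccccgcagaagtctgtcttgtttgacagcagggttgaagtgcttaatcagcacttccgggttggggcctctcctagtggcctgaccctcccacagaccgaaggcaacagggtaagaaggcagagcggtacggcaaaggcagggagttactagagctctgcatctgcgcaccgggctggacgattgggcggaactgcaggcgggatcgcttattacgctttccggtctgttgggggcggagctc

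The motifs were searched on both strands in the same 250 bases of 27025 genes, 35 of the 40 members among them. The antioxidant response element core TGACNNNGC was found in 10.1% of all promoters and in 3 of the 35, those of Gsta3, Gstm5 and Mgst1. The xenobiotic response element core GCGTG was found in 28.2% of all and in 7 members, among them Sult1d1, Gstp1, Gstp3 and Gstm1. The D-box TTANGTAA, bound by PAR bZIP factors such as DBP, was found in 2.11% of all and in Sult1a1 and Ugt2b1. A partial site of the liver factor HNF1, which is GTTAAT, any base and ATT, was found in 0.411% of all and in Sult1d1 alone among members, where it does not overlap the GCGTG match, which stands in the sequence as its reverse complement. The windows of Sult1e1, Ugt2b37 and Gstm4 held none of the 4 motifs, which says only that these letters are not there.

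**Figure D2:**
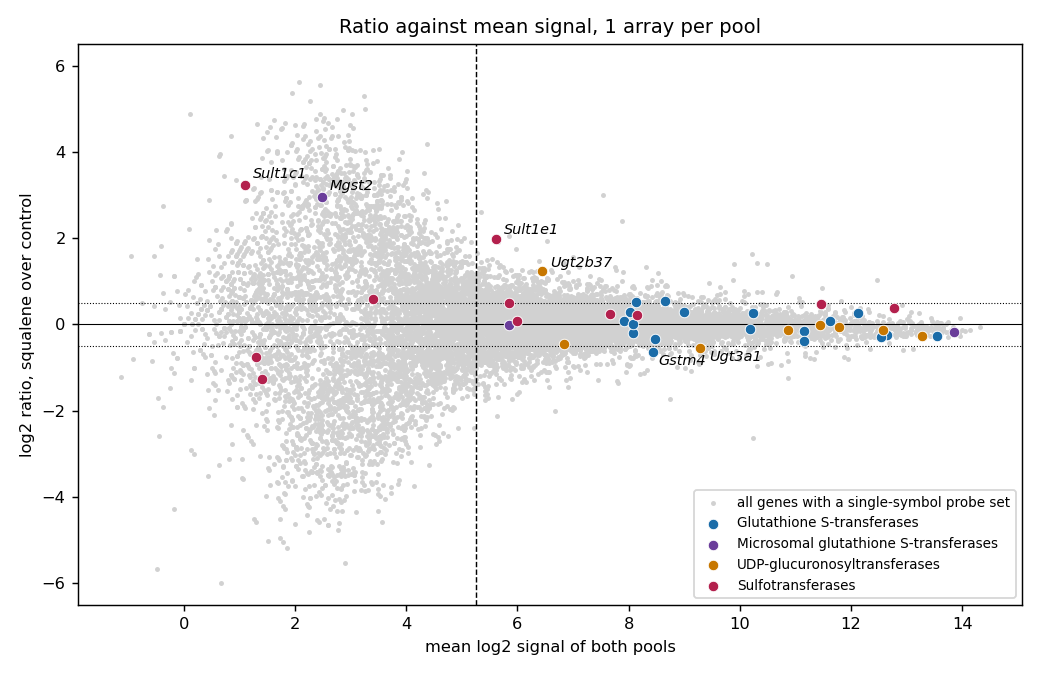
Log2 ratio of squalene over control against the mean log2 signal of both pools, for all 12393 genes (grey) and the 40 conjugation genes (coloured by family), 1 array per pool. The dashed vertical line is the mean signal filter and the dotted lines are log2 ratios of 0.5 and -0.5. The ratios spread widely to the left of the filter, where Sult1c1 and Mgst2 lie, and Sult1e1 and Ugt2b37 stand just to its right.

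Sulfotransferases read higher in the squalene pool across the genes that passed. All 7 of 7 lay above 0, with log2 ratios of 0.09 to 1.99 and a median of 0.39, while 50.9% of all genes passing lay above 0, a difference that was not tested. Higher by more than 0.5 were 2 of the 7, Sult1e1 and Sult2a2, and 0 were lower, beside 9.21% and 8.08% of all passing genes. The other 5 lay between. Since the 4 that failed the filter include 2 above and 2 below 0, the count over all 11 sulfotransferases is 9 above and 2 below. Sult1e1 passed through its squalene signal, and over the 6 that reached the array median in each pool the median log2 ratio was 0.32.

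Sult1a1, the main phenol sulfotransferase of liver, read 8062.6 in the squalene pool and 6158.4 in the control pool, or 1.31-fold higher. Sult1d1, which sulfates catecholamines in mice, read 3320.1 in the squalene pool and 2387.7 in the control pool (log2 ratio 0.48), and a second probe set gave 1863.6 and 1327.8 (0.49). These are the bright members of the family. Sult1b1, known for thyroid hormones and phenols, read 306.9 in the squalene pool and 263.5 in the control pool (0.22). Sult5a1 read 221.3 in the squalene pool and 186.8 in the control pool (0.24).

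Sult2a2, a member of the subfamily that sulfates hydroxysteroids and bile acids, read 68.1 in the squalene pool and 48.1 in the control pool. Its log2 ratio of 0.50 is barely past the band. Sult1c2 read 65.4 in the squalene pool and 61.5 in the control pool (0.09). Of the genes that failed the filter, Sult1c1 stood at 6.6 in the squalene and 0.7 in the control pool, and Sult3a1 at 13.0 in the squalene and 8.6 in the control pool. Sult2b1, which sulfates cholesterol, stood at 1.7 in the squalene and 4.1 in the control pool, and Sult4a1, a brain form, at 1.9 in the squalene and 3.2 in the control pool. All 8 signals of these 4 genes were far below the array medians, where the ratios of all genes spread widest.

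UDP-glucuronosyltransferases lay slightly below 0 as deposited, with Ugt2b37 as the exception. Of 8 genes, all of which passed, 7 lay below 0 and 1 above, with 1 higher by more than 0.5 (Ugt2b37) and 1 lower (Ugt3a1). Of all passing genes, 50.9% lay above 0, 9.21% were higher and 8.08% lower by that much. The median log2 ratio of the 8 was -0.13, which became 0.12 on scaling to the spike-ins. After quantile normalization or loess 3 of the 8 lay above 0.

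Ugt2b5 and Ugt2b1, of the steroid-conjugating subfamily, were among the brightest probe sets. Ugt2b5 read 9065.1 in the squalene pool, against 10929.6 in the control pool (-0.27), and Ugt2b1 read 5803.2 in the squalene pool, against 6400.1 in the control pool (-0.14). Ugt2b34 read 3460.6 in the squalene and 3582.7 in the control pool (-0.05), with 0.02 on its other probe set. Ugt2a3 read 2760.1 in the squalene pool and 2795.8 in the control pool (-0.02). The 4 bright Ugt2 genes thus lay between -0.27 and -0.02, apart from Ugt2b37 at 1.24. Ugt2b38 read 98.1 in the squalene pool and 134.4 in the control pool (-0.45).

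The Ugt1a genes, which include the bilirubin enzyme Ugt1a1, share their downstream exons, and 3 probe sets name 8 of them together. These read 8033.5, 5258.2 and 5232.1 in the squalene pool, against 8943.6, 5501.5 and 5293.9 in the control pool, with log2 ratios of -0.15, -0.07 and -0.02. The summed output of the cluster was thus nearly equal in the pools, and single Ugt1a genes cannot be told apart here. Ugt2a1 and Ugt2a2, known from olfactory tissue, share 1 probe set, at 1.4 in the squalene pool and 5.5 in the control pool.

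The Ugt3a enzymes are known in humans for using sugars other than glucuronic acid. Ugt3a1 read 519.4 in the squalene pool, against 753.5 in the control pool (-0.54), but its other probe set read 563.9 in the squalene pool and 497.2 in the control pool (0.18). The call therefore rests on which probe set represents the gene. Ugt3a2 read 1774.8 in the squalene pool and 1937.1 in the control pool (-0.13).

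**Figure D3:**
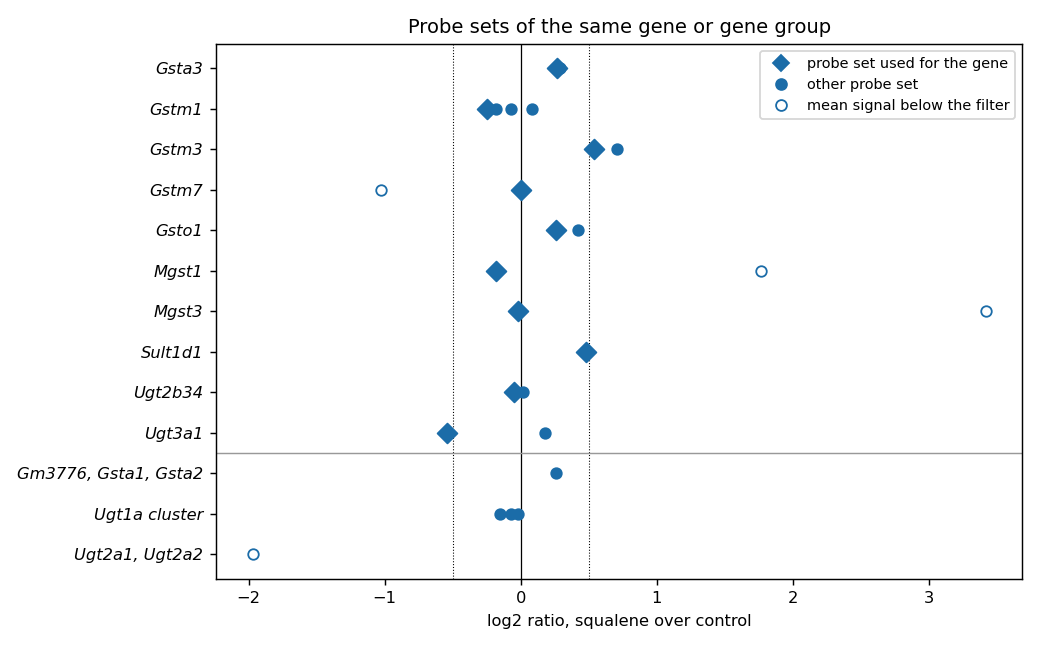
Log2 ratio of squalene over control for every probe set of the 10 genes with several probe sets and, under the line, for the 5 probe sets that name several genes. Diamonds mark the probe set used for the gene and open symbols those with a mean signal below the filter. Bright probe sets of the same gene lie close together except for Ugt3a1, and the open symbols of Mgst1, Mgst3 and Gstm7 lie far from the diamonds.

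Soluble glutathione S-transferases showed no common direction. Of 18 genes, all passing, 2 were higher by more than 0.5 and 1 was lower, beside 9.21% and 8.08% of all passing genes. The other 15 lay between. Of the 18, 8 lay above 0 and 10 below, beside 50.9% above 0 over all passing genes. The median log2 ratio was -0.05, and 0.21 on scaling to the spike-ins. By class, the pi genes lay below 0, the alpha genes were split, and the mu and theta classes held both the highest and the lowest values.

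Gstp1 and Gstp3 belong to the pi class, whose main gene is more active in male than in female mouse liver. Gstp1 read 10773.4 in the squalene pool, against 13112.3 in the control pool (-0.28), and Gstp3 read 5401.7 in the squalene pool, against 6587.2 in the control pool (-0.29). The ratios are nearly equal, and whether either probe set also binds the transcript of the other gene was not tested.

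The alpha class handles products of lipid peroxidation and, in mice, the epoxide of aflatoxin. Gsta3, the gene known for the latter, read 4891.8 in the squalene pool and 4044.9 in the control pool (0.27), with 0.29 on its second probe set. Gsta2 read 563.4 in the squalene pool and 460.4 in the control pool (0.29), and a probe set shared by Gsta1, Gsta2 and Gm3776 read 322.7 in the squalene pool and 269.4 in the control pool (0.26). Gsta4, which conjugates 4-hydroxynonenal, went the other way, at 314.1 in the squalene pool and 399.9 in the control pool (-0.35).

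The mu class held the widest split. Gstm3 read 483.6 in the squalene pool, against 333.6 in the control pool (1.45-fold higher), and its dimmer probe set gave 0.71. Gstm4 read 278.4 in the squalene pool, against 434.9 in the control pool (1.56-fold lower) on its single probe set. Gstm1, a main mu form of liver, read 5843.5 in the squalene pool and 6934.0 in the control pool (-0.25), and its other 3 probe sets gave -0.18, -0.07 and 0.08. Gstm2 stood at 0.28, Gstm6 at 0.07 and Gstm5 at -0.21. Gstm7 read 268.2 in the squalene pool and 268.5 in the control pool (0.00). Its second probe set had signals of 18.6 in the squalene and 38.0 in the control pool, and the ratio of -1.03 there lies below the filter. The probe set used for Gstm3 carries the suffix for probes shared between genes and that of Gstm1 the suffix for probes that may bind related sequences, and what neighbouring genes add to either signal was not tested.

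In the theta class, Gstt3 read 335.8 in the squalene pool and 233.5 in the control pool (1.44-fold higher). Gstt1, which acts on small halogenated compounds, read 2001.3 in the squalene pool, against 2602.8 in the control pool (-0.38), and Gstt2 stood at -0.10. Among the single-gene classes, Gsto1, a thiol transferase that reduces dehydroascorbate, read 1328.4 in the squalene pool and 1106.6 in the control pool (0.26), with 0.42 on its other probe set. Gstz1, the maleylacetoacetate isomerase of tyrosine breakdown, stood at 0.07. Gstk1, a form of mitochondria and peroxisomes, stood at -0.16.

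The microsomal forms sit in membranes and also act on lipid hydroperoxides. Mgst1 read 13990.1 in the squalene pool and 15828.6 in the control pool (-0.18). Its second probe set had signals of 19.8 in the squalene and 5.8 in the control pool, and the ratio of 1.77 there lies below the filter. Mgst3 read 57.0 in the squalene pool and 57.9 in the control pool (-0.02), with a second probe set at 24.6 in the squalene and 2.3 in the control pool. Mgst2 had signals of 15.6 in the squalene and 2.0 in the control pool, both below the medians.

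Several of the genes lie next to each other, and neighbours did not share a ratio throughout. On chromosome 3 the 7 mu genes follow each other with 0 other protein-coding genes between them in the RefSeq table, in the order Gstm5, Gstm7, Gstm6, Gstm3, Gstm2, Gstm1 and Gstm4. Their log2 ratios in that order were -0.21, 0.00, 0.07, 0.54, 0.28, -0.25 and -0.64. The genes at the 2 ends lay below 0 and the highest stood in the middle. On chromosome 5 the sulfotransferase genes Sult1b1, Sult1d1 and Sult1e1 are direct neighbours, with log2 ratios of 0.22, 0.48 and 1.99, and they follow the Ugt2 genes with 2 other genes between. Ugt2b37 (1.24) lies directly between Ugt2b5 (-0.27) and Ugt2a3 (-0.02). On chromosome 10, Gstt3 (0.52) lies directly beside Gstt1 (-0.38).

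**Figure D4:**
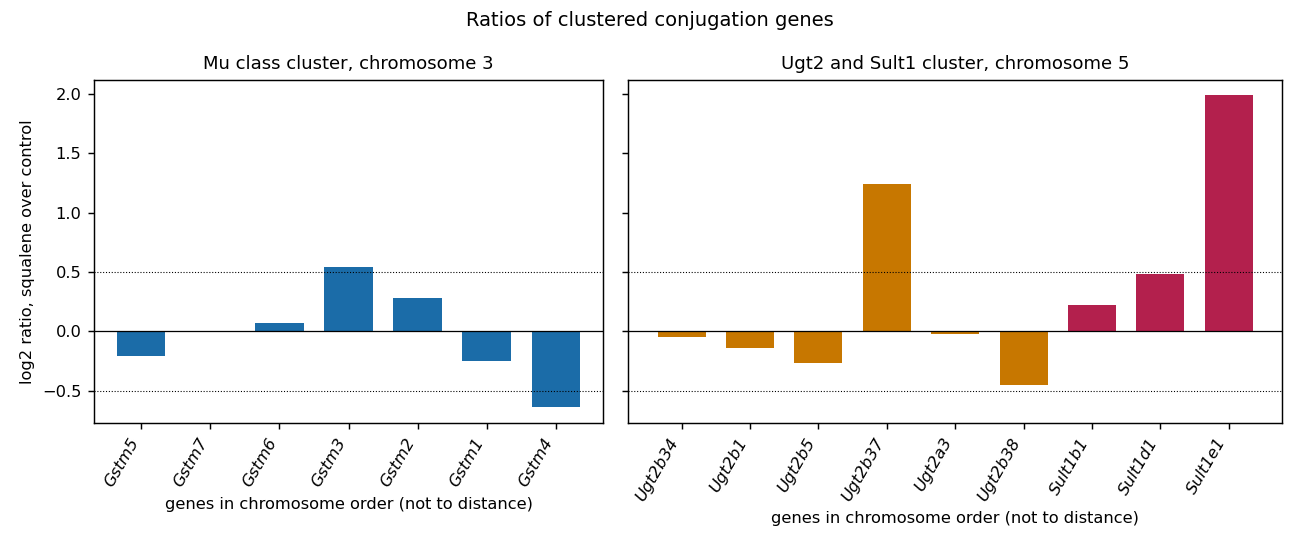
Log2 ratio of squalene over control for the mu class genes of chromosome 3 and the Ugt2 and Sult1 genes of chromosome 5, in chromosome order and not to distance, 1 array per pool. Blue bars are glutathione S-transferases, orange glucuronosyltransferases and red sulfotransferases, and dotted lines mark 0.5 and -0.5. Gstm3 and Gstm4 point in opposite directions within the left cluster, and in the right cluster Ugt2b37 and Sult1e1 stand out.

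Genes that supply the donors were near 0 as lists. Of 12 passing genes for UDP-glucuronate and PAPS, 1 was higher and 1 lower, beside 9.21% and 8.08% of all passing genes. The other 10 lay between, and the median log2 ratio of the 12 was 0.01. The 2 called genes are the synthases of PAPS, the sulfate donor. Papss2 read 921.1 in the squalene pool and 643.8 in the control pool (0.52), while Papss1 read 50.9 in the squalene pool and 80.5 in the control pool (-0.66). Slc26a1, a sulfate transporter, stood at 0.33. Ugdh, which makes UDP-glucuronate, read 1288.8 in the squalene pool and 1235.0 in the control pool (0.06).

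Of 13 passing genes of glutathione supply and turnover, 0 were higher and 1 was lower, beside 9.21% and 8.08% of all passing genes. The other 12 lay between, and the median of the 13 was 0.00. The lower gene was Gclc, the catalytic subunit of the rate-limiting glutamate-cysteine ligase, at 1466.9 in the squalene pool, against 2305.7 in the control pool (1.57-fold lower). Its modifier Gclm stood at -0.28. The synthetase Gss (0.03) and the reductase Gsr (0.01) had nearly equal signals in the pools.

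Of 16 passing genes for known regulators of these families, 2 were higher and 1 was lower, beside 9.21% and 8.08% of all passing genes. The other 13 lay between, and the median of the 16 was 0.03. Nfe2l2, which encodes NRF2, read 445.6 in the squalene pool and 438.3 in the control pool (0.02). The CAR gene Nr1i3 stood at -0.13, the PXR gene Nr1i2 at -0.07 and Ahr at 0.35. Bach1, a repressor at NRF2 sites, read 563.1 in the squalene pool and 304.2 in the control pool (1.85-fold higher). The other called genes, Bcl6 (1.93) and Stat5b (-0.90), act in growth hormone signalling. Transcript level does not measure the activity of these proteins.

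Known targets of the sensors outside the 3 families were mixed. Of 16 passing NRF2 targets, 1 was higher and 3 were lower, with a median of -0.01, beside 9.21% and 8.08% of all passing genes. Nqo1, a quinone reductase, read 72.8 in the squalene pool and 44.6 in the control pool (0.71), whereas Osgin1 stood at -0.72, Hmox1, the heme oxygenase, at -0.59, and Ephx1, the microsomal epoxide hydrolase, at -0.53. Hmox1 read 38.3 in the squalene pool, under the 41.3 median of that array, and 57.6 in the control pool. Over the 15 NRF2 targets that reached the array median in each pool, 1 was higher and 2 were lower, with a median of 0.03. Of all genes so chosen, 7.85% were higher and 6.35% lower. Of 14 passing CAR and PXR targets, 2 were higher and 1 was lower, with a median of 0.10. Cyp2b10, the usual CAR marker, read 913.1 in the squalene pool, against 1782.2 in the control pool (1.95-fold lower), and Cyp3a13 stood at 0.75. Cyp3a11, the usual PXR marker, stood at -0.17. The other higher gene, Cyp2c37, read 49.4 in the squalene pool and 30.9 in the control pool, under the 39.9 median of the control array. Over the 13 CAR and PXR targets that reached the array median in each pool, 1 was higher and 1 lower, with a median of 0.09. Of 3 passing AHR targets, 1 was higher and 0 were lower, with a median of 0.25: Nqo1 again, Tiparp at 0.25 and Cyp1a2 at -0.04.

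Circadian clock and output genes that passed stood mostly higher in the squalene pool. Of 13 passing genes, 9 were higher and 1 lower, with a median of 0.72, against 9.21% and 8.08% of all passing genes. Per2 and Per3 had control signals below the array median, and Per1 a squalene signal below it. Over the 10 genes that reached the array median in each pool, 7 were higher, 0 were lower and the median was 0.71. Of all genes so chosen, 7.85% were higher and 6.35% lower. With no filter, 10 of 16 were higher and 3 lower, beside 21.5% and 19.8% of all genes. Among those that failed the filter, Arntl (-2.59) and Npas2 (-3.71) were lower and Bhlhe41 (1.97) was higher. Dbp, a PAR bZIP factor known to drive detoxification genes in mouse liver, read 1546.7 in the squalene pool and 589.2 in the control pool, and its relatives Hlf and Tef stood at 1.04 and 0.72. With 1 array a pool, their part in the ratios of the conjugation genes was not tested. Pericentral and periportal hepatocyte genes, which mark the zones of the lobule, had medians of -0.01 over 16 and -0.06 over 12 passing genes, close to the 0.01 of all genes.

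**Figure D5:**
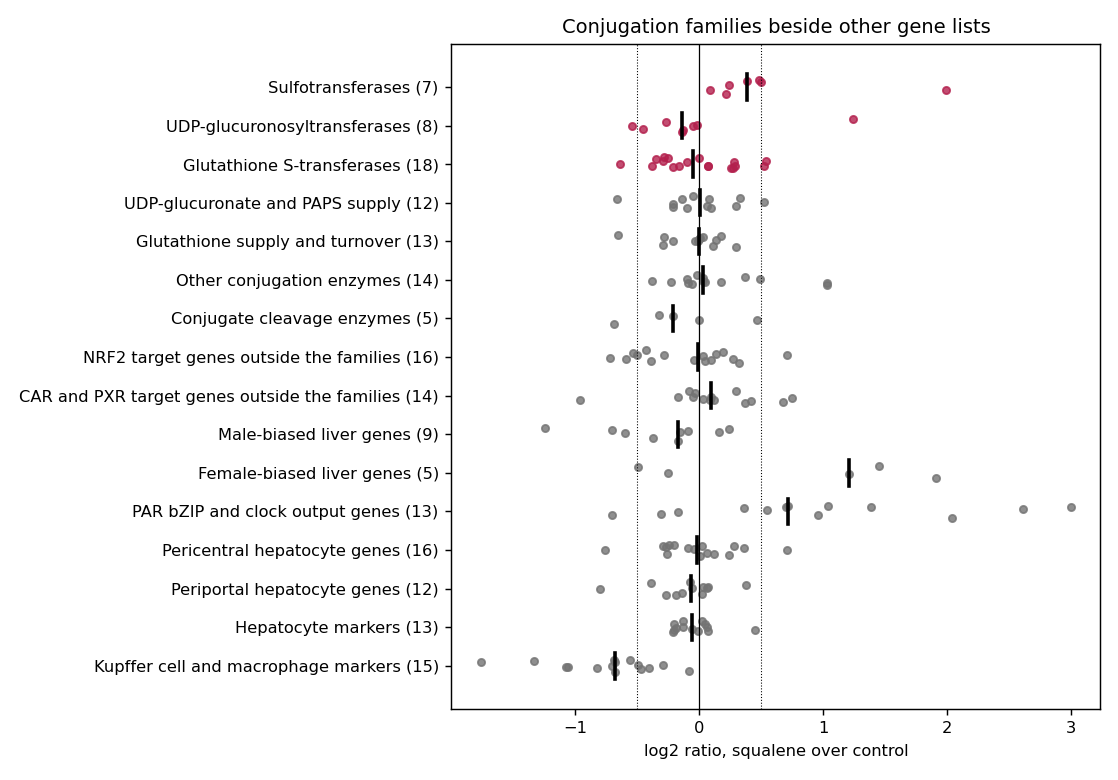
Log2 ratio of squalene over control of single genes (points) and the median (black bar) for the 3 larger conjugation families (red) and other lists (grey), with the number of genes passing the mean signal filter in brackets, 1 array per pool. The sulfotransferases lie to the right of 0, with a median of 0.39, while the medians of the other conjugation families are -0.13 and -0.05 as deposited and 0.12 and 0.21 on scaling to the spike-ins.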

How the data were processed

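Liver RNA of 1 squalene pool and 1 control pool was measured on Affymetrix mouse arrays. The authors deposited linear intensity values, 1 MAS5 signal per probe set, per the submitters' processing notes. The sources used here give no scaling target, but both arrays had a 2%-trimmed mean of 200.1. Each held 22690 probe sets. After 64 array controls were left out, 20380 had a single symbol in the platform annotation, 691 several and 1555 none. All 40 members matched the RefSeq gene table by Entrez number. Genome coordinates of the array are not given, so the table (GRCm38.p6) served for gene order and promoters.

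The log2 ratio was squalene over control with no pseudocount. Each gene used the single-symbol probe set whose mean log2 signal over both pools was highest, and passed when that mean reached the median of all probe sets (5.26 on the log2 scale). Ratios beyond 0.5 were counted as higher or lower. With 1 array per group no test was made, and the number of arrays limits the precision. In the text, both signals are given for members beyond 0.5, for the 4 brightest of each family and for members whose probe sets disagree, and at most 4 genes are named per list, besides Nfe2l2, Nr1i2, Nr1i3 and Ahr. Further genes were added after the values were seen, namely Ugdh, Gss, Gsr, Hlf, Tef, Per1, Arntl, Npas2, Bhlhe41, Dcn, Reln, Cyp3a11 and Cyp4a14. Signals of other members were added then too, except for Gstm2, Gstm5, Gstm6, Gstt2, Gstz1 and Gstk1, which are given by their ratio alone. The members, lists and limits were chosen with earlier results of these data known.

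Alternatives were other probe sets per gene, other filters and limits, centring, loess (limma 3.58.1, R 4.3.3), quantile normalization, scaling to spike-ins, a pseudocount of 3.0 and a floor at the median. Python 3.11.15 with numpy 2.4.6 and pandas 2.3.3, and matplotlib 3.10.9, were used.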

Additional observations from a re-analysis of the deposited data

How the results depend on the processing

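The 5 higher and 2 lower genes depended on the limit and the scaling. The higher count was 8 with no filter, 2 with the filter at the 75th percentile, 2 after median centring and 12 after scaling to the spike-ins. The shares of all genes higher under these settings were 21.5%, 4.87%, 7.85% and 24.3%. At limits of 1.0 and 1.5 the higher count was 2 and 1, the latter Sult1e1, from whose standing nothing is read, as above. The lower count was 4 with no filter, 1 with each gene's probe set nearest 0 and 0 after scaling to the spike-ins. The shares of all genes lower under these settings were 19.8%, 6.53% and 2.91%. The lower count was 5 at a limit of 0.3, and 0 at limits of both 1.0 and 1.5. Shares of all genes at limits of 0.3 and 1.0 were not computed. Centring moves all ratios by 0.04, which takes Gstm3, Gstt3 and Sult2a2 back inside the band. Scaling to the spike-ins put the median log2 ratio at 0.24 for all passing genes of the families, 0.65 for sulfotransferases, 0.12 for UDP-glucuronosyltransferases and 0.21 for glutathione S-transferases, and the median of all genes at 0.27. The last family had -0.13 with plain-suffix probe sets only. Sulfotransferases that passed lay above 0 under each of the 13 settings except no filter, where 9 of 11 did. Most of these settings could not have put such a gene below 0, so nothing is read from this. Filters leave ratios as they are, a pseudocount or floor cannot turn a ratio above 0, and scaling to the spike-ins raises all. Centring by 0.04 is less than the lowest of their ratios, 0.09. Ugt3a1 turned to 0.18 with its probe set nearest 0. Of 310 values of single genes under 9 settings, 271 moved by less than the SD between probe sets and 39 by more, Ugt3a1 included. Many of the 271 could not have moved by more. Genes with 1 probe set keep their value when another probe set or the mean is taken, and centring moves all ratios by only 0.04. Most of the 39 come from the shift of 0.26 on scaling to the spike-ins. The tally is therefore no measure of how firm the ratios are. No paired analysis was possible because each group has 1 array. Leaving out a replicate was not possible for the same reason. Dim signals limit Sult1e1, Sult2a2, Ugt2b37 and the 5 genes that failed the filter.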

Other observations

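Other conjugation enzymes of liver were mostly near 0, with a median log2 ratio of 0.03. Of 14 passing genes, 2 were higher by more than 0.5 and 0 lower, beside 9.21% and 8.08% of all passing genes. The 2 higher genes were methyltransferases. Nnmt, which methylates nicotinamide, read 1342.3 in the squalene pool and 659.3 in the control pool (2.04-fold higher), and As3mt, which methylates arsenic, read 258.5 in the squalene pool and 126.7 in the control pool (2.04-fold higher). The histamine methyltransferase Hnmt stood at 0.49. Among enzymes that cleave conjugates, 1 of 5 passing genes, the sulfatase Arsg, was lower (-0.69), beside 8.08% of all passing genes. The glucuronidase Gusb stood at -0.32.

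Sex-biased liver genes gave mixed values in these male pools. Of 9 passing male-biased genes outside the families, 3 were lower, 0 higher and 6 between, with a median of -0.17, beside 8.08% of all passing genes lower and 9.21% higher: Elovl3 read 1215.5 in the squalene pool, against 2869.0 in the control pool, and Hsd3b5 (-0.70) and Mup3 (-0.60) followed. Of 11 female-biased genes on the array, 4 were higher, 1 was lower and the median was 0.17 with no filter, and most were dim. Of all genes with no filter, 21.5% were higher and 19.8% lower. Only 3 of the 11 reached the array median in each pool, with 1 higher, 0 lower and a median of -0.25. Of all genes so chosen, 7.85% were higher and 6.35% lower. Cyp17a1 read 97.4 in the squalene pool and 25.9 in the control pool, Cyp3a44 read 81.7 in the squalene pool and 29.9 in the control pool, and Fmo2 read 183.0 in the squalene pool and 79.3 in the control pool, the first 2 with control signals below the array median, so that they passed the mean signal filter through the squalene pool. Cyp4a14 (-0.25) and Acot3 (-0.49) lay below 0. Bcl6, a repressor known to act on sex-biased liver genes in mice, read 181.7 in the squalene pool and 47.7 in the control pool, and Stat5b read 59.4 in the squalene pool and 111.1 in the control pool.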
